A study of Homo sapiens with 6 samples.

Results

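The RAB GTPases are the largest branch of the RAS superfamily of small GTPases, and their genes were described here in SNU-387, an established human hepatocellular carcinoma cell line, after stable knockdown of the SRC-family kinase YES1. Members were chosen by symbol: every protein-coding gene named RAB with a number and an optional letter, which gave 63 of the 58219 genes counted. RAB1C, annotated as a processed pseudogene, and RAB-binding proteins with longer names were left out. No measured value picked a single member, but the family was taken up after earlier results of this same contrast were known, so the counts below are a description and support nothing by themselves. The 63 genes were grouped by the role for which each is best known, although many act at several steps: 8 early endocytic, 9 recycling, 10 late endosomal or lysosomal, 17 early secretory, 12 exocytic and 7 other or little studied.

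The study compared SNU-387 cells that stably carried a short hairpin RNA against YES1 (shYES1, n = 3) with cells that stably carried a non-target hairpin (shNT, n = 3). Both groups come from the same tumour line and both carry a hairpin, and no untreated parental cells were among the samples analysed here. The labels give neither the hairpin sequence nor the number of hairpins or clones, so lower YES1 and any other effect of that hairpin cannot be told apart. They do not say either that the 3 samples of a group were separate cultures, so p-values measure nothing beyond how far these samples differ, and that spread may be technical.

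A RAB protein works as a membrane switch. Bound to GTP it sits on a membrane and recruits effectors such as tethers and motor adaptors, and bound to GDP it can be drawn off into the cytosol. Exchange factors load it with GTP, GTPase-activating proteins end the active state, and a geranylgeranyl anchor added by RAB escort protein and its transferase lets it bind the membrane. Different members mark different compartments, so that receptor uptake, recycling to the surface, delivery to lysosomes, transport through the Golgi and secretion each have their own RABs. In liver cells these routes carry receptor uptake, lipoprotein secretion and polarised sorting.

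Reads were counted per gene, 11290889 to 18944148 gene reads in shYES1 libraries and 12825919 to 16388822 in shNT libraries. Levels are given as CPM, counts relative to the library's gene reads after scaling for composition, as means ± SD over 3 libraries per group unless stated, and changes as log2 fold changes of shYES1 over shNT with their standard error (SE). A gene is called higher or lower where its Benjamini-Hochberg adjusted p in edgeR's quasi-likelihood test, taken over all 14239 genes tested, is under 0.05. YES1 itself had 42.9, 43.3 and 46.02 CPM in shYES1 libraries, against 178, 181 and 179.9 CPM in shNT libraries, a log2 fold change of -2.02 (SE 0.037, adjusted p = 7.93e-40). Of 8 hepatocyte markers, ALB, APOA1, APOB, TTR, HNF4A and CYP3A4 were under 1 CPM in every library, TTR, HNF4A and CYP3A4 at 0 reads, so these hepatocyte markers were absent or nearly so in both groups. The whole hepatocyte list summed to 19.1 to 21.7 CPM in shYES1 libraries and 20.2 to 23.6 CPM in shNT libraries. SERPINA1 and TF made up nearly all of it. SERPINA1 was called lower at 16.9 ± 1.17 CPM in shYES1 cells and 19.15 ± 1.34 CPM in shNT cells. TF was called higher at 3.41 ± 0.237 CPM in shYES1 cells and 2.46 ± 0.305 CPM in shNT cells. Of 4 progenitor markers of hepatocellular carcinoma, AFP, GPC3 and KRT19 were under 1 CPM in every library, and EPCAM was not called. Epithelial markers KRT8, KRT18 and CDH1 summed to 1069 to 1090 CPM in shYES1 libraries and 763 to 772 CPM in shNT libraries, CDH1 being under 1 CPM. Mesenchymal markers VIM, CDH2 and FN1 summed to 16557 to 16726 CPM in shYES1 libraries and 25559 to 28199 CPM in shNT libraries. Nearly all of that sum is FN1, which was called lower with VIM, whereas CDH2 was called higher at 707 ± 9.81 CPM in shYES1 cells and 542 ± 3.54 CPM in shNT cells (log2 fold change 0.38). Immune markers summed to 37.1 to 40.1 CPM in shYES1 libraries and 42.7 to 46.4 CPM in shNT libraries, with CD3E at 0 reads. CD14 made up nearly all of the immune sum, called lower at 38.3 ± 1.52 CPM in shYES1 cells and 44.0 ± 2.36 CPM in shNT cells. Endothelial markers summed to 23.0 to 23.4 CPM in shYES1 libraries and 24.8 to 25.6 CPM in shNT libraries. Of the endothelial markers PECAM1 was called lower, VWF was called higher at 1.44 ± 0.218 CPM in shYES1 cells and 0.351 ± 0.149 CPM in shNT cells and CDH5 was not called. The part of these marker differences in the RAB values was not tested. In bulk RNA, fewer cells of a kind and less RNA per cell cannot be told apart.

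The family as a whole moved both ways, with more falls than rises. Of the 63 RAB genes, 52 passed the low-count filter, and of these 24 were called lower, 16 higher and 12 neither way. The called share of 76.9% stands beside 65.3% of all genes tested, the higher calls (30.8%) beside 32.5% and the lower calls (46.2%) beside 32.8%. The 3 shYES1 and the 3 shNT values did not overlap in 40 of the 52 genes, the same 40 that were called, where 67.9% of all genes tested had groups that did not overlap. The median log2 fold change of the 52 genes was -0.08, beside -0.005 for all genes tested. Under scaling by library size alone the median of all genes moved to 0.09 and that of the RAB genes to 0.02, so the sign of the family median depends on the scaling.

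Changes of at least 2-fold were few. RAB31, RAB38, RAB5C, RAB8B and RAB14 were called lower by at least 2-fold, 5 of 52 genes, beside 6.22% of all genes tested. RAB4B, RAB3A and RAB37 were called higher by at least 2-fold, 3 of 52, beside 2.5% of all genes tested. These 3 lie at the 2-fold line: 0 RAB genes pass it upward when libraries are scaled on genes without CCTTTC (RAB4B 0.98, RAB3A 0.97, RAB37 0.92), and 1 does with unstranded counts, where RAB4B is 0.66 (adjusted p = 0.0156), or without shYES1 replicate 2, where RAB37 is 0.88. The 5 large falls spread over 4 of the role groups: RAB31 and RAB5C are early endocytic, RAB14 recycling, RAB38 a RAB of lysosome-related organelles and RAB8B exocytic. In the plot of log2 fold changes by role, RAB31 lies furthest to the left of all 52 genes.

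**Figure D1:**
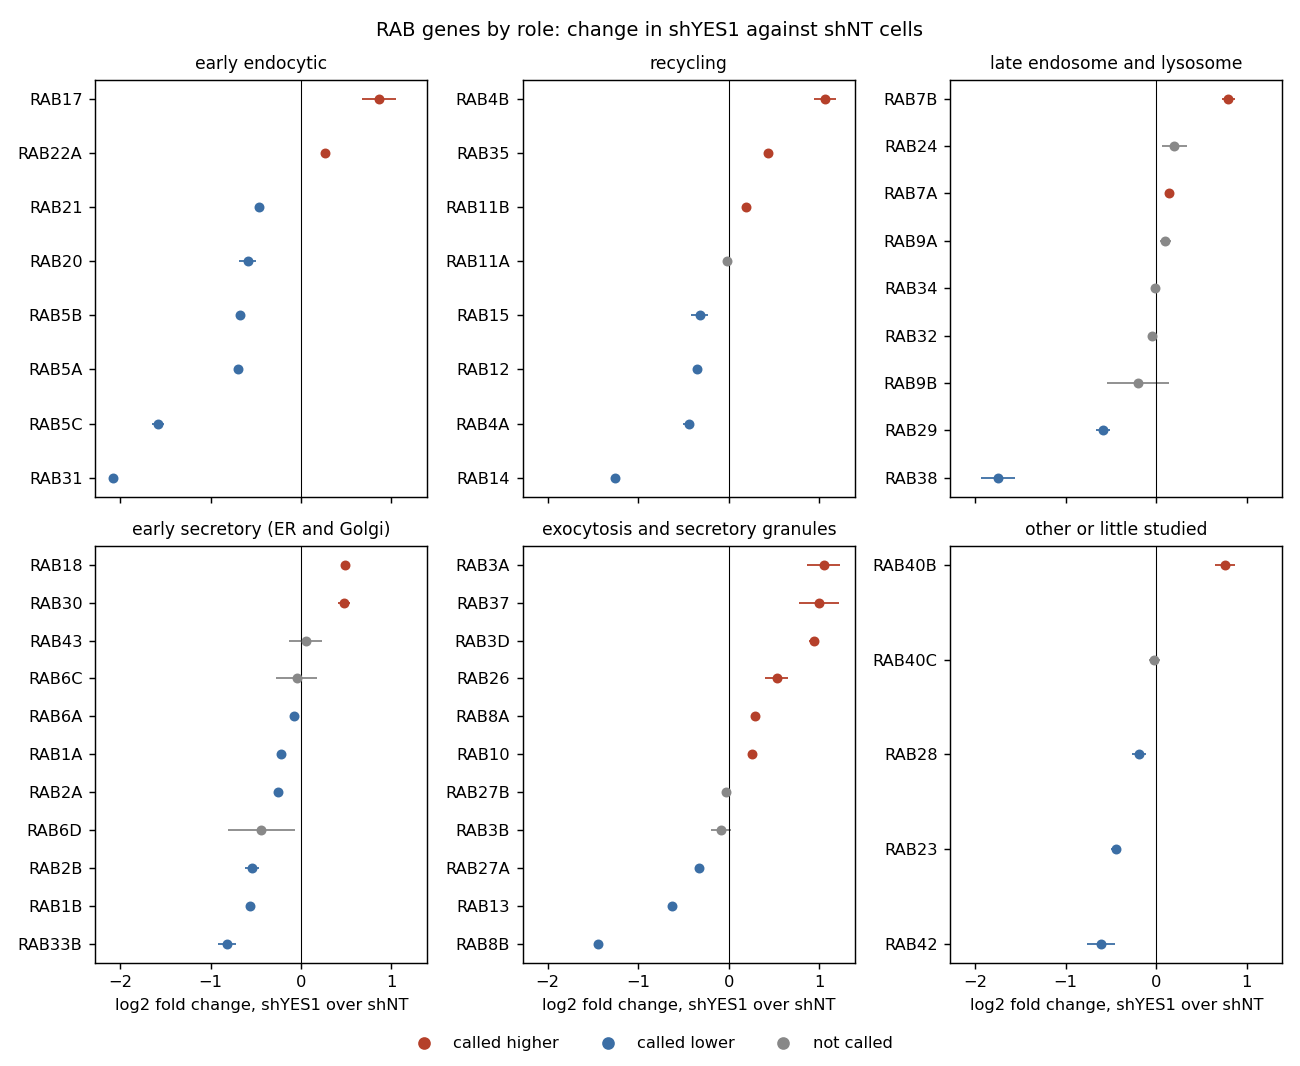
Log2 fold change of shYES1 over shNT (horizontal axis) for each of the 52 tested RAB genes, in 1 panel per role. Points are edgeR estimates, bars are ± 1 SE, and colours give the call. Early endocytic genes lie mostly left of 0, with RAB31 at -2.08, whereas exocytic genes lie on both sides.

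Earlier work on these data had reported that genes whose 3′ untranslated region (UTR) holds the 6 bases CCTTTC were lower in shYES1 cells, and the annotated 3′ UTRs of the RAB genes were therefore read for it. It was searched on the transcript strand alone, in 1 protein-coding transcript per gene from GENCODE 29. Copies of it can share 1 base, and such copies were each counted. All 5 genes that were called lower by at least 2-fold hold it. The copies in RAB31, RAB8B, RAB14 and RAB38 follow 5′ to 3′ on GRCh38, each in a window of 30 bases with the 6 bases in capitals, because these genes are among the largest falls in the family.
RAB31, copy 1 (chr18:9861166-9861195, plus strand): cttattttgtaaCCTTTCctcatccagttt
RAB31, copy 2 (chr18:9861397-9861426, plus strand): accactctgttaCCTTTCtgtattgtctta
RAB31, copy 3 (chr18:9862423-9862452, plus strand): agtcagctaggaCCTTTCcgccatgtattc
RAB8B, copy 1 (chr15:63263646-63263675, plus strand): cacctagagggcCCTTTCctgcttctctga
RAB8B, copy 2 (chr15:63263914-63263943, plus strand): catcagtgttagCCTTTCcctatttcagca
RAB8B, copy 3 (chr15:63264926-63264955, plus strand): aaagcttagttgCCTTTCtcaacaaacact
RAB8B, copy 4 (chr15:63267460-63267489, plus strand): gacactgcagttCCTTTCatgcaaaatacc
RAB14, copy 1 (chr9:121181349-121181378, minus strand): cccctcatttgaCCTTTCacctctgtctgt
RAB14, copy 2 (chr9:121181006-121181035, minus strand): tgatatcttaagCCTTTCttcccatcctta
RAB38, copy 1 (chr11:88113355-88113384, minus strand): cctccatatgtgCCTTTCtgttagctttct
The sequence of the YES1 hairpin could not be read from the sources used here, and whether it pairs with any of these windows was not tested.

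Copies of CCTTTC and the direction of change went together in part, in the RAB family as in all genes. The sequence was taken from earlier work on these same data, where its holders were lower. Lower values of holders here are therefore no independent support, and the values below only describe the RAB genes. At least 1 copy was present in 37 of 52 RAB genes (71.2%), beside 41.7% of the 11903 tested genes with an annotated 3′ UTR. The 15 RAB genes without a copy had a median log2 fold change of 0.19 (all genes without one, 0.09), and 8 of them were called higher and 5 lower. Their lower share was 33.3%, beside 26.5% of all genes without a copy. With 1 copy the median was -0.05 over 17 RAB genes (all genes, -0.05), and with 2 copies it was -0.44 over 11 (all genes, -0.12). Lower calls came to 41.2% with 1 copy (all genes, 41.0%) and 63.6% with 2 copies (all genes, 48.5%). The 9 RAB genes with 3 or more copies had a median of -0.56 (all genes, -0.21), and 5 of them were called lower, 1 higher and 3 neither way. That lower share of 55.6% is close to the 54.6% of all genes with 3 or more copies. The 3′ UTRs lengthened with the copies, from a median of 744 bases at 0 copies through 1858 and 2538 bases to 4163 bases at 3 or more in the RAB genes, and from 655 to 4299 bases in all genes. The part of UTR length in these values was not tested.

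Single members went both with and against the copy number. RAB3B held 8 copies, the most in the family, and was not called (-0.08, SE 0.11, adjusted p = 0.554), and RAB27B held 4 and was not called either (-0.03). RAB30 with 4 copies and RAB22A with 2 were called higher. RAB20 and RAB42 held none and were called lower. Of the 3 genes called higher by at least 2-fold, RAB4B and RAB37 held none and RAB3A held 2. RAB8B and RAB8A, relatives that moved in opposite directions, held 4 copies and none, and RAB4A and RAB4B, the other such pair, held 2 and none. Other relatives went against the copy number. RAB27A held none and was called lower (-0.33), whereas RAB27B with 4 was not called. RAB5B held 7 copies and RAB5C 3, and RAB5C fell more (-1.58, against -0.67 for RAB5B).

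**Figure D2:**
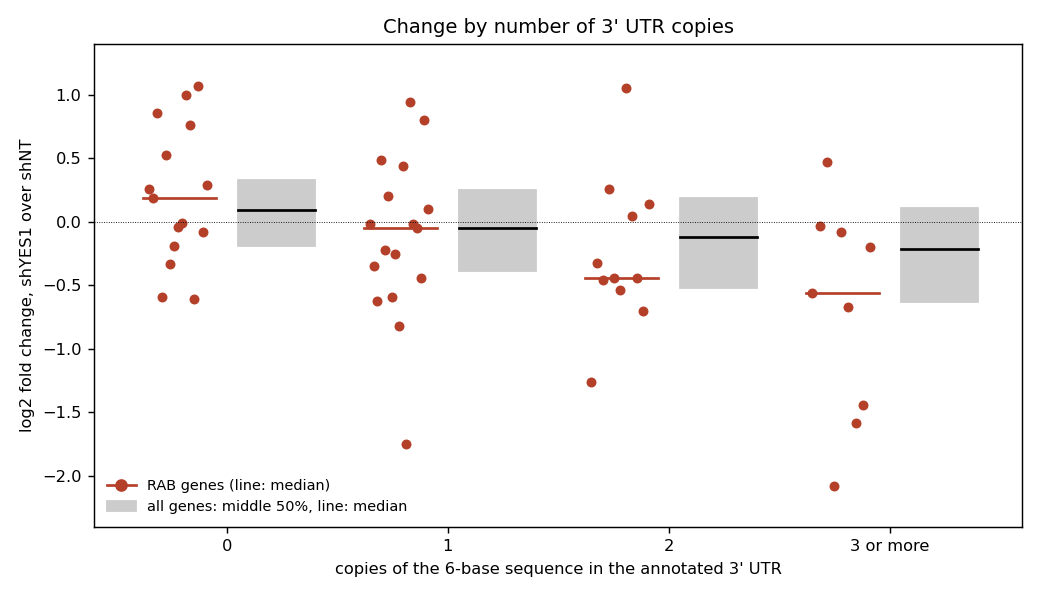
Log2 fold change of shYES1 over shNT (vertical axis) by the number of copies of the 6-base sequence in the annotated 3′ UTR, for 52 RAB genes (points, line at the median) and 11903 genes (box, middle 50% with a line at the median). The RAB medians are 0.19, -0.05, -0.44 and -0.56, against 0.09, -0.05, -0.12 and -0.21 in all genes, and members with 3 or more copies spread between -2.08 and 0.47.

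Early endocytic RABs, which act in uptake from the cell surface and in the fusion of early endosomes, were mostly lower. All 8 were tested, and 6 were called lower and 2 higher, with a median log2 fold change of -0.63. These counts stand beside 32.8% called lower and 32.5% called higher among all genes tested. RAB31 (ENSG00000168461.12, chr18:9708165-9862551, plus strand), which acts between the trans-Golgi network and endosomes and in the trafficking of the EGF receptor, had 101, 99.4 and 98.6 CPM in shYES1 libraries, against 418, 421 and 429 CPM in shNT libraries. The 2 sets are far apart, each within a narrow range. Its log2 fold change was -2.08 (SE 0.029, adjusted p = 1.57e-44), a level 4.24-fold lower in shYES1 cells. By CPM per kilobase of exon, the scale on which genes can be compared, RAB31 was 16th of the family in shYES1 cells (17.9 ± 0.255 CPM per kb) and 4th in shNT cells (75.7 ± 0.96 CPM per kb).

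The 3 RAB5 genes, which drive fusion of incoming vesicles with early endosomes and between endosomes, were all called lower. RAB5C (ENSG00000108774.14, chr17:42124976-42155044, minus strand) fell most, with 15.3, 12.8 and 12.7 CPM in shYES1 libraries, against 37.8, 41.4 and 42.5 CPM in shNT libraries (log2 fold change -1.58, SE 0.069, adjusted p = 7.76e-25). Its exons overlap AC099811.2 on the same strand, so some of its reads may have been dropped as ambiguous and its value is uncertain. RAB5A had 43.5, 42.2 and 45.3 CPM in shYES1 libraries, against 71.4, 70.5 and 71.2 CPM in shNT libraries (log2 fold change -0.70, adjusted p = 9.17e-19). RAB5B had 114, 111 and 109.6 CPM in shYES1 libraries, against 180.1, 173 and 178 CPM in shNT libraries (log2 fold change -0.67, adjusted p = 2.23e-23). In none of the 3 genes did the groups overlap, which held for every called RAB gene. The ratio of RAB5A to RAB5B differed by -0.03 on the log2 scale between shYES1 and shNT cells, and it overlapped between the groups, whereas that of RAB5B to RAB5C was 7.44, 8.63 and 8.65 in shYES1 libraries and 4.76, 4.17 and 4.197 in shNT libraries.

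The remaining early endocytic members were spread around these. RAB21, which moves integrins through early endosomes, was called lower at 71.4 ± 1.22 CPM in shYES1 cells and 97.9 ± 2.52 CPM in shNT cells (log2 fold change -0.46). RAB20, a RAB of phagosomes, was also called lower at 9.16 ± 1.12 CPM in shYES1 cells and 13.6 ± 0.565 CPM in shNT cells (log2 fold change -0.59). RAB22A (ENSG00000124209.3, chr20:58309696-58367507, plus strand), a close relative of RAB31, which is also called RAB22B, was called higher instead. RAB22A had 129.9, 133 and 136 CPM in shYES1 libraries and 113, 104 and 114 CPM in shNT libraries, a log2 fold change of 0.26 (SE 0.035, adjusted p = 6.64e-09). RAB17, which acts in transcytosis across epithelia, was low throughout and called higher at 3.46 ± 0.118 CPM in shYES1 cells and 1.92 ± 0.51 CPM in shNT cells (log2 fold change 0.86). Summed per kilobase, the 8 early endocytic genes came to 76.7 ± 1.23 CPM per kb in shYES1 cells and 163 ± 2.21 in shNT cells, which was 6.55% of the family in shYES1 cells and 11.3% in shNT cells. RAB31 made up most of that difference, and without it the sum was 58.9 ± 0.977 CPM per kb in shYES1 cells and 87.7 ± 1.57 in shNT cells.

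**Figure D3:**
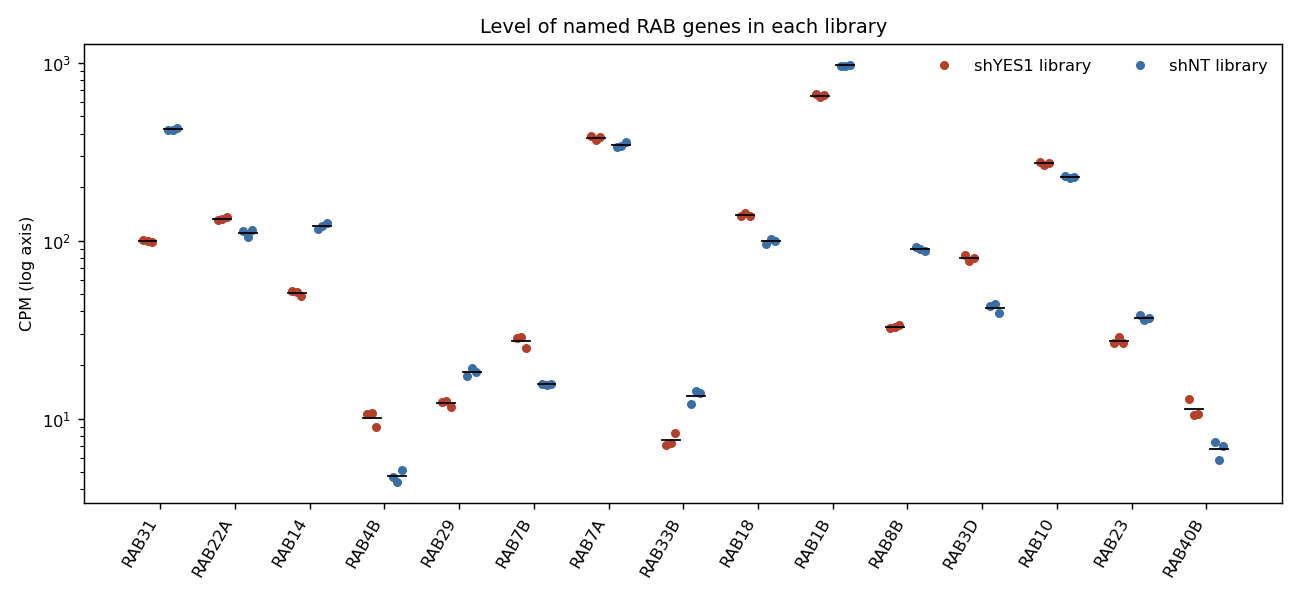
CPM (log axis) of 15 RAB genes in each of the 3 shYES1 and 3 shNT libraries, with a line at each group mean. For each role they are the gene of highest mean and the largest called rise and fall among genes averaging 5 CPM or more. The libraries of a group lie close together. All 15 genes are called, and groups overlapped in no called RAB gene, so the gap between groups came with the choice of genes. Of all genes tested, 67.9% had groups that did not overlap.

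Recycling RABs, which return receptors and lipids from endosomes to the plasma membrane, split. Of 9 listed, 8 were tested, and 3 were called higher, 4 lower and 1 neither way, with a median of -0.17. Among all genes tested, 32.5% were called higher and 32.8% lower. RAB14 (ENSG00000119396.10, chr9:121178137-121223014, minus strand), which acts between endosomes, the Golgi and the surface, had 52.05, 51.5 and 49.1 CPM in shYES1 libraries, against 117, 121 and 126 CPM in shNT libraries. All 3 shYES1 values lie well below every shNT value. Its log2 fold change was -1.26 (SE 0.04, adjusted p = 2.2e-30), and it ranked 22nd per kilobase in shYES1 cells and 12th in shNT cells. RAB4B (ENSG00000167578.17, chr19:40778216-40796938, plus strand), a RAB of fast recycling, was the largest rise of the group at 10.6, 10.7 and 8.99 CPM in shYES1 libraries, against 4.69, 4.39 and 5.13 CPM in shNT libraries (log2 fold change 1.07, SE 0.12, adjusted p = 8.36e-11). Its exons are shared with the read-through genes MIA-RAB4B and RAB4B-EGLN2, so this level is uncertain. Its relative RAB4A had 24.1, 23.01 and 23.8 CPM in shYES1 libraries, against 31.4, 33.5 and 31.4 CPM in shNT libraries, a log2 fold change of -0.44 (adjusted p = 1.4e-08), and it shares exon sequence with SPHAR.

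RAB11A and RAB11B, which mark the slow recycling endosome, differed little between the groups. RAB11A was 84.2 ± 2.02 CPM in shYES1 cells and 85.1 ± 0.75 CPM in shNT cells (log2 fold change -0.02, SE 0.037, adjusted p = 0.691) and was not called. RAB11B was called higher at 91.4 ± 2.42 CPM in shYES1 cells and 80.3 ± 1.38 CPM in shNT cells (log2 fold change 0.19). RAB35, which acts in rapid recycling and in cytokinesis, was called higher at 79.1 ± 1.5 CPM in shYES1 cells and 58.1 ± 1.38 CPM in shNT cells (log2 fold change 0.44). RAB12 was listed in this group, although it directs the transferrin receptor to lysosomes, and it was called lower. RAB15, an endocytic RAB known mostly from neurons, was also called lower. RAB12 was 56.7 ± 1.58 CPM in shYES1 cells and 71.8 ± 2.78 CPM in shNT cells (log2 fold change -0.35), and RAB15 was 9.37 ± 0.458 CPM in shYES1 cells and 11.6 ± 0.626 CPM in shNT cells (log2 fold change -0.32). RAB25, the epithelial relative of RAB11, had 1 read over the 6 libraries and was not tested.

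Late endosomal and lysosomal RABs had as many rises as falls. Of 10 listed, 9 were tested, and 2 were called higher, 2 lower and 5 neither way, with a median of -0.01. The called share of 44.4% was below the 65.3% of all genes tested. These counts depend on the scaling: 4 were called higher, 2 lower and 3 neither way under library size, and 1 higher, 4 lower and 4 neither way on genes without CCTTTC. RAB7A (ENSG00000075785.12, chr3:128726122-128814796, plus strand), which brings late endosomes and autophagosomes to fuse with lysosomes, had 386, 369 and 384 CPM in shYES1 libraries and 334, 340.2 and 357 CPM in shNT libraries (log2 fold change 0.14, SE 0.027, adjusted p = 9.61e-06). The difference is small, and the call is lost when libraries are scaled on genes without CCTTTC (adjusted p = 0.0622). RAB7B (ENSG00000276600.4, chr1:205976740-206003461, minus strand), which acts from endosomes back to the trans-Golgi network, had 28.5, 28.8 and 24.98 CPM in shYES1 libraries, against 15.6, 15.5 and 15.6 CPM in shNT libraries (log2 fold change 0.80, SE 0.072, adjusted p = 9.35e-14).

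The falls in this group were RAB38 and RAB29. RAB38 (ENSG00000123892.11, chr11:88113242-88175467, minus strand), known from melanosome formation, had 1.096, 1.63 and 1.43 CPM in shYES1 libraries, against 4.12, 5.07 and 4.56 CPM in shNT libraries, and its log2 fold change was -1.75 (SE 0.19, adjusted p = 5.26e-11). With a mean under 5 CPM it rests on few reads, 18, 19 and 28 in shYES1 libraries and 51, 67 and 72 in shNT libraries. RAB29 (ENSG00000117280.12, chr1:205767986-205775460, minus strand), which recruits the kinase LRRK2 to membranes, had 12.4, 12.5 and 11.6 CPM in shYES1 libraries, against 17.4, 19.1 and 18.2 CPM in shNT libraries (log2 fold change -0.59, SE 0.08, adjusted p = 1.12e-08). RAB32, the closest relative of RAB38, was not called at 47.3 ± 2.15 CPM in shYES1 cells and 48.4 ± 2.58 CPM in shNT cells (log2 fold change -0.04). RAB34, RAB9A, RAB9B and RAB24 were not called either, with log2 fold changes of -0.01, 0.10, -0.20 and 0.20. RAB9A and RAB9B return mannose 6-phosphate receptors to the Golgi, RAB34 positions lysosomes and RAB24 acts in autophagy. RAB36 was listed at 0 reads in all 6 libraries.

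Early secretory RABs, which serve transport between the endoplasmic reticulum and the Golgi and within the Golgi, were lower more often than higher. Of 17 listed, 11 were tested, and 2 were called higher, 6 lower and 3 neither way, with a median of -0.22. Higher calls (18.2%) stand beside 32.5% of all genes tested, and lower calls (54.5%) beside 32.8%. With a 1.2-fold minimum, 2 were called higher, 3 lower and 6 neither way. RAB1B (ENSG00000174903.15, chr11:66268533-66277492, plus strand), which acts in transport out of the endoplasmic reticulum, was the most abundant RAB transcript per kilobase in both groups, at 325 ± 7.51 CPM per kb in shYES1 cells and 481 ± 2.72 in shNT cells. It had 667, 637 and 655 CPM in shYES1 libraries, against 964, 963 and 973 CPM in shNT libraries (log2 fold change -0.56, SE 0.024, adjusted p = 3.8e-25). RAB1B held 27.8% of the family's summed CPM per kb in shYES1 cells and 33.2% in shNT cells. RAB1A, which works at the same step, was called lower at 200.1 ± 4.37 CPM in shYES1 cells and 233 ± 3.5 CPM in shNT cells (log2 fold change -0.22).

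The other early secretory members went both ways. RAB33B (ENSG00000172007.5, chr4:139453232-139476609, plus strand), a Golgi RAB that also binds the autophagy protein ATG16L1, was the largest fall here, with 7.06, 7.27 and 8.33 CPM in shYES1 libraries, against 12.04, 14.3 and 14 CPM in shNT libraries (log2 fold change -0.82, SE 0.099, adjusted p = 5.83e-10). RAB18 (ENSG00000099246.16, chr10:27504174-27542237, plus strand), which acts at contacts between the endoplasmic reticulum and lipid droplets, was the largest rise, with 138, 142 and 138 CPM in shYES1 libraries, against 95.9, 102 and 99.9 CPM in shNT libraries (log2 fold change 0.49, SE 0.034, adjusted p = 2.63e-17). In neither gene did the groups overlap, which held for every called RAB gene. RAB30, a Golgi RAB, was called higher at 27.8 ± 1.82 CPM in shYES1 cells and 20.3 ± 0.592 CPM in shNT cells (log2 fold change 0.47). RAB2A and RAB2B, which keep Golgi structure and tether vesicles there, were called lower, RAB2A at 119 ± 0.757 CPM in shYES1 cells and 141 ± 5.13 CPM in shNT cells (log2 fold change -0.25) and RAB2B at 14.9 ± 1.29 CPM in shYES1 cells and 21.9 ± 1.73 CPM in shNT cells (log2 fold change -0.54). RAB6A, which acts in retrograde transport through the Golgi, was called lower at 385 ± 3.25 CPM in shYES1 cells and 407 ± 9.72 CPM in shNT cells (log2 fold change -0.08, adjusted p = 0.00545), and under scaling by library size its direction turned to 0.02. RAB6A, RAB6C and RAB6D are near-identical copies that can lose reads to each other's sequence, and RAB6C (-0.05) and RAB6D (-0.44) were not called. RAB43 was not called (0.05) and shares exons with the read-through gene ISY1-RAB43. The other 6 early secretory genes, RAB19, RAB33A, RAB39A, RAB39B, RAB41 and RAB6B, were not tested, and the highest of them reached 0.684 CPM.

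Exocytic RABs, which bring vesicles and secretory granules to the plasma membrane, were called higher more often than lower, although their summed level was lower. Of 12 listed, 11 were tested, and 6 were called higher, 3 lower and 2 neither way, with a median of 0.26. Higher calls (54.5%) stand beside 32.5% of all genes tested, and lower calls (27.3%) beside 32.8%. With a 1.2-fold minimum, 4 were called higher, 3 lower and 4 neither way. Summed per kilobase, the group came to 203 ± 3.12 CPM per kb in shYES1 cells and 219 ± 1.98 in shNT cells. RAB8B (ENSG00000166128.12, chr15:63189469-63267782, plus strand), which carries cargo from the Golgi and recycling endosomes to the surface, went against most of its group with 32.1, 32.8 and 33.7 CPM in shYES1 libraries, against 92.6, 89.4 and 86.9 CPM in shNT libraries. Its log2 fold change was -1.44 (SE 0.045, adjusted p = 1.7e-30). RAB8A, which serves the same step and primary cilia, was called higher, with 84.9, 82.97 and 81.8 CPM in shYES1 libraries and 68.8, 67.5 and 67.7 CPM in shNT libraries (log2 fold change 0.29, SE 0.039, adjusted p = 7.1e-09). RAB8A shares exon sequence with HSH2D and is uncertain to that extent.

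The other 5 rises were in RAB3D, RAB3A, RAB37, RAB26 and RAB10. RAB3D (ENSG00000105514.7, chr19:11322046-11346270, minus strand), a RAB of secretory granules in exocrine cells, had 83.5, 76.4 and 80.2 CPM in shYES1 libraries, against 42.7, 43.8 and 39.2 CPM in shNT libraries (log2 fold change 0.94, SE 0.046, adjusted p = 7.04e-23). Its exons overlap TMEM205 and AC011472.2 on the same strand, so its level is uncertain. RAB3A, best known from synaptic vesicles, was called higher at 4.27 ± 0.375 CPM in shYES1 cells and 2.04 ± 0.301 CPM in shNT cells (log2 fold change 1.05), and RAB37, a RAB of secretory granules, at 3.02 ± 0.652 CPM in shYES1 cells and 1.47 ± 0.265 CPM in shNT cells (log2 fold change 1.0). Both are low genes, and RAB26, another granule RAB, was called higher at 6.83 ± 0.589 CPM in shYES1 cells and 4.69 ± 0.597 CPM in shNT cells (log2 fold change 0.53). RAB10 (ENSG00000084733.10, chr2:26034107-26137454, plus strand), which moves the glucose transporter GLUT4 to the surface in fat cells, had 276, 266 and 275 CPM in shYES1 libraries and 229.5, 224 and 228 CPM in shNT libraries (log2 fold change 0.26, SE 0.028, adjusted p = 1.32e-11). RAB13, which acts in the delivery of junction proteins, was called lower at 126 ± 4.64 CPM in shYES1 cells and 193 ± 7.3 CPM in shNT cells (log2 fold change -0.62), and it shares exon sequence with AL358472.6. RAB27A, which docks granules and exosome-bearing endosomes, was called lower at 144 ± 1.32 CPM in shYES1 cells and 182 ± 5.54 CPM in shNT cells (log2 fold change -0.33) and shares exon sequence with PIGBOS1. RAB27B, at 74.1 ± 2.16 CPM in shYES1 cells and 76.2 ± 2.96 CPM in shNT cells, and RAB3B, at 7.88 ± 0.496 CPM in shYES1 cells and 8.27 ± 0.178 CPM in shNT cells, were not called, and RAB3C, with 3 reads in all, was not tested.

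Among the 7 other genes, 5 were tested, and 1 was called higher, 3 lower and 1 neither way. For all genes tested the shares were 32.5% higher and 32.8% lower. RAB23 (ENSG00000112210.11, chr6:57186992-57222314, minus strand), a negative regulator of Hedgehog signalling, had 26.6, 28.7 and 26.7 CPM in shYES1 libraries, against 37.97, 35.7 and 36.6 CPM in shNT libraries (log2 fold change -0.44, SE 0.057, adjusted p = 3.82e-09). RAB40B (ENSG00000141542.10, chr17:82654973-82698728, minus strand), whose protein carries a SOCS box that joins it to a ubiquitin ligase, had 12.8, 10.4 and 10.7 CPM in shYES1 libraries, against 7.35, 5.83 and 6.97 CPM in shNT libraries (log2 fold change 0.76, SE 0.11, adjusted p = 5.22e-08). RAB40C, of the same kind, was not called (-0.02). RAB42 was called lower at 3.24 ± 0.463 CPM in shYES1 cells and 4.99 ± 0.549 CPM in shNT cells (log2 fold change -0.61). RAB28, known from cilia and photoreceptors, was called lower at 13.9 ± 0.716 CPM in shYES1 cells and 15.7 ± 0.828 CPM in shNT cells (log2 fold change -0.19, adjusted p = 0.034), and that call was lost without shNT replicate 1 (adjusted p = 0.06), shNT replicate 3 (0.153), shYES1 replicate 1 (0.118) or shYES1 replicate 3 (0.0796). RAB40A and RAB44, with 2 and 16 reads in all, were not tested.

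Where several RAB genes share a number, their protein products are relatives, and these did not always move together. The 12 numbers with at least 2 tested genes give 18 pairs, which were looked at after the values were seen and are given with no test. Both genes were called lower in 5 pairs and higher in 2, and in 2 pairs they were called in opposite directions. In the remaining pairs at least 1 gene was not called. Of all genes tested, 32.5% were called higher and 32.8% lower, so pairs of each kind can arise among unrelated genes too. The pairs called lower come from RAB1, RAB2 and RAB5 alone. The RAB5 genes give several of them, so pairs are not independent and do not count subfamilies. The ratio of RAB8A to RAB8B was 2.65, 2.53 and 2.43 in shYES1 libraries and 0.743, 0.755 and 0.779 in shNT libraries. These are ratios of CPM with no correction for gene length, so they compare the groups and not the levels of the genes. The ratio of RAB4A to RAB4B was 2.28, 2.15 and 2.65 in shYES1 libraries and 6.71, 7.64 and 6.11 in shNT libraries. A ratio within a library does not depend on how libraries are scaled.

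**Figure D4:**
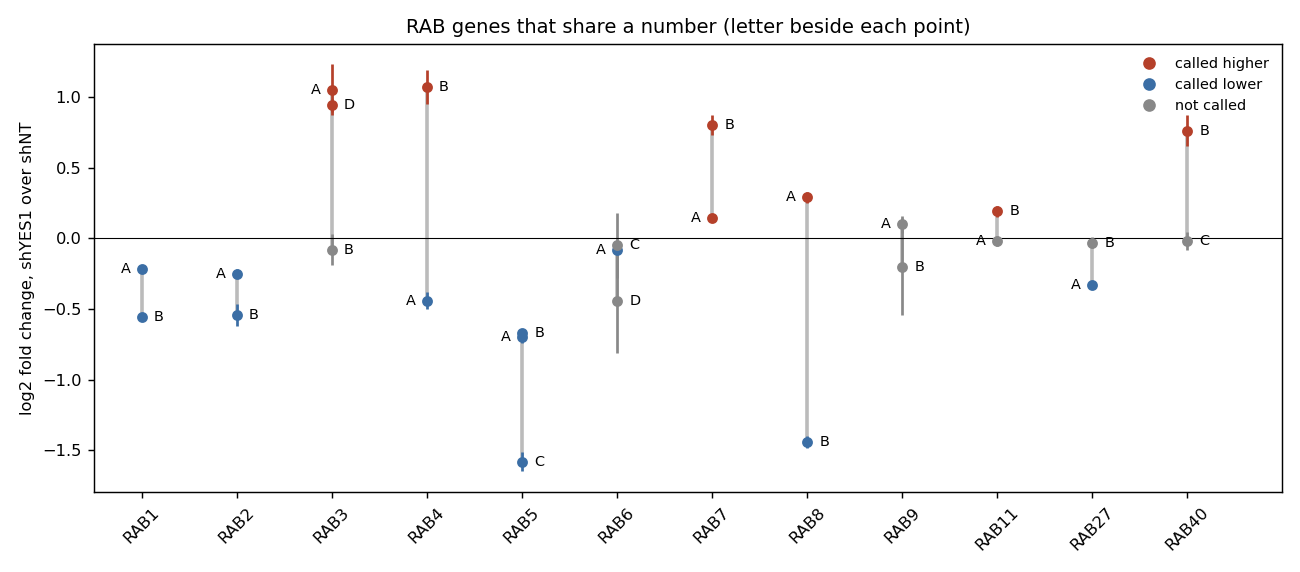
Log2 fold change of shYES1 over shNT (vertical axis) of RAB genes that share a number, joined by a grey line, with bars of ± 1 SE and colours for the call. RAB4 and RAB8 hold pairs called in opposite directions, at 1.07 and -0.44 for RAB4B and RAB4A and at 0.29 and -1.44 for RAB8A and RAB8B.

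The summed RNA of the family was lower in shYES1 cells. The 63 genes summed to 4000, 3919 and 3941 CPM in shYES1 libraries, against 4812, 4822 and 4907 CPM in shNT libraries, which is 81.6% of the shNT mean and a log2 ratio of -0.29. Most of that difference lay in RAB1B and RAB31, while the median log2 fold change of the tested members was -0.08. RAB1B was 653 ± 15.1 CPM in shYES1 cells and 966 ± 5.45 CPM in shNT cells. RAB31 was 99.8 ± 1.42 CPM in shYES1 cells and 423 ± 5.36 CPM in shNT cells. As a share of unscaled gene reads, RAB genes held 0.406% to 0.411% in shYES1 libraries and 0.464% to 0.472% in shNT libraries. By CPM per kb the sum was 1171 ± 14.4 in shYES1 cells and 1448 ± 15.4 in shNT cells. Early secretory genes held 44.2% of it in shYES1 cells and 47.5% in shNT cells, and late endosomal and lysosomal genes 19.9% in shYES1 cells and 15.2% in shNT cells. After RAB1B the order per kilobase began with RAB7A and RAB6A in both groups. RAB10 then took the 4th place in shYES1 cells, and RAB31 took it in shNT cells.

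**Figure D5:**
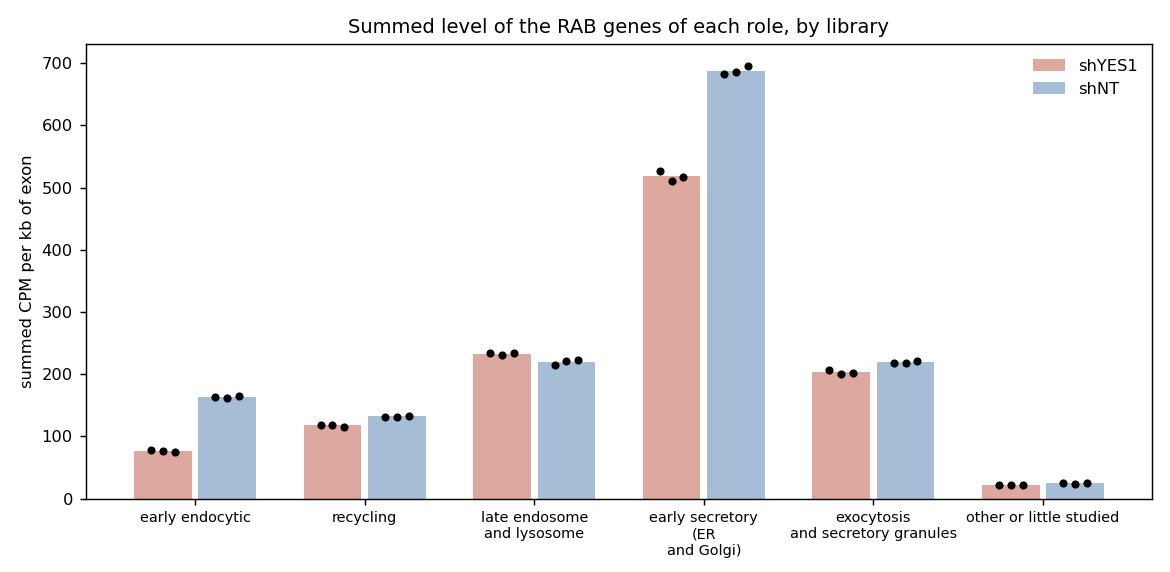
Summed CPM per kb of exon of the RAB genes of each role, as bars for the group mean and points for the 3 libraries, with shYES1 left of shNT. The early endocytic sum is 76.7 in shYES1 cells and 163 in shNT cells, and the early secretory sum 518 in shYES1 cells and 688 in shNT cells. Most of the early endocytic difference is RAB31, and most of the early secretory difference is RAB1B. The late endosomal and lysosomal sum is 233 in shYES1 cells and 220.1 in shNT cells.

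The proteins that handle RABs were read from lists by function. Of 9 genes for prenylation and membrane delivery, all tested, 6 were called higher and 1 lower, with a median log2 fold change of 0.27. Higher calls (66.7%) stand beside 32.5% of all genes tested, and lower calls (11.1%) beside 32.8%. RABGGTA, a subunit of the transferase that adds the lipid anchor, was called higher at 24.8 ± 0.40 CPM in shYES1 cells and 17.1 ± 1.39 CPM in shNT cells (log2 fold change 0.53). RABIF, which stabilises RABs free of nucleotide, was called higher at 23.02 ± 0.477 CPM in shYES1 cells and 16.95 ± 1.89 CPM in shNT cells (log2 fold change 0.42). CHM, the RAB escort protein REP1, was called lower with a log2 fold change of -0.13.

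Exchange factors, which switch RABs on, were called higher in 20 and lower in 7 of 36 tested genes, with a median of 0.17. Higher calls came to 55.6% (all genes tested, 32.5%) and lower calls to 19.4% (all genes tested, 32.8%). MADD, which acts on RAB3 and RAB27, was called higher at 100.01 ± 2.74 CPM in shYES1 cells and 61.4 ± 2.19 CPM in shNT cells (log2 fold change 0.71). DENND6A, which acts on RAB14, and DENND5B were called higher with log2 fold changes of 0.74 and 0.65. RGP1, which works with RIC1 on RAB6A, was called lower at 57.8 ± 2.31 CPM in shYES1 cells and 92.5 ± 3.58 CPM in shNT cells (log2 fold change -0.67). DENND4B and DENND2B, exchange factors of the DENN family, were called lower with log2 fold changes of -0.56 and -0.36.

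GTPase-activating proteins, which switch RABs off, were called higher in 16 and lower in 11 of 33 tested genes, with a median of 0.12. The lower share of 33.3% is close to the 32.8% of all genes tested, and the higher share of 48.5% stands beside 32.5%. TBC1D4, which acts on RAB10 in insulin response, was called higher at 83.4 ± 2.07 CPM in shYES1 cells and 55.5 ± 1.02 CPM in shNT cells (log2 fold change 0.59). EVI5L and TBC1D17 were also called higher, with log2 fold changes of 0.68 and 0.54. TBC1D23 was the largest fall of this list at 41.7 ± 1.18 CPM in shYES1 cells and 92.9 ± 0.049 CPM in shNT cells (log2 fold change -1.15), and its protein is better known for capturing endosome-derived vesicles at the trans-Golgi than for GTPase activation. USP6NL, which acts on RAB5, and TBC1D12 were called lower with log2 fold changes of -0.67 and -0.55.

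Effectors and tethers, which read the active RAB, were called higher in 26 (52.0%) and lower in 10 (20.0%) of 50 tested genes, with a median of 0.14. RAB11FIP1, which binds RAB11 on recycling endosomes, was the largest fall at 9.52 ± 1.52 CPM in shYES1 cells and 34.5 ± 1.82 CPM in shNT cells (log2 fold change -1.83). Its relative RAB11FIP2 was called higher at 61.7 ± 1.4 CPM in shYES1 cells and 35.1 ± 0.913 CPM in shNT cells (log2 fold change 0.82). RABEP1, an effector of RAB5, and RILPL2, which binds RABs phosphorylated by LRRK2, were called lower with log2 fold changes of -0.75 and -1.24. SYTL5, which binds RAB27, and BICD1, which links RAB6 vesicles to dynein, were called higher with log2 fold changes of 1.0 and 0.63. In all 4 lists more genes were called higher than lower, where 32.5% of all genes tested were called higher and 32.8% lower.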

How the data were processed

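Poly(A) RNA of 6 SNU-387 samples was sequenced after stranded library preparation, per the labels' protocols. The authors deposited raw read counts per gene, with no normalization, and the submitters' processing notes name CASAVA 1.8.2, Trimmomatic 0.35, STAR 2.5.1b and the build GRCh38. Which annotation release they counted against is not given in those sources. Reverse-strand counts were used, since 93.5% to 94.0% of stranded gene reads lay there, and entries naming no gene (19.8% to 20.3% of reads) were left out. Of 58219 identifiers, 57392 had a symbol, and coordinates, exon lengths and 3′ UTRs come from GENCODE 29 for the 57881 it holds.

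The whole table was fitted with edgeR 4.0.16 in R 4.3.3 (quasi-likelihood, TMM scaling, at least 10 reads by its expression filter) and p-values were adjusted by Benjamini and Hochberg over 14239 genes. The code was first tested on simulated data with far fewer genes changed than were called here, so scaling under so broad a change was not tested. A first criterion was missed by genes of few reads, and it was then set over genes of more reads. A gene under 3 reads in a library, 0.153 to 0.257 CPM, cannot be told from 0, which covers counting error only. The biological coefficient of variation was 2.1%.

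Per-library values were given for the largest called rise and fall of at least 5 mean CPM and the highest mean in each role, and for relatives and large falls named after their values were seen. From each pathway list up to 3 rises and 3 falls of that level were named, and 1 listed name, RAB6IP1, was not matched. The members, roles and lists were chosen with earlier results of these data known, so no test was made over the family and no p is given for its sum. Alternatives were RLE and library size scaling, DESeq2 1.42.0, limma-voom (limma 3.58.1), other filters, unstranded counts, a replicate block, scaling on genes without CCTTTC, a 1.2-fold minimum and leaving out each sample. A comparison of protein sequences was not made here. Some sequence windows and 1 gene of the pathway lists are not reported here.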

Additional observations from a re-analysis of the deposited data

How the results depend on the processing

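Of the 40 called RAB genes, 30 kept their direction and call under every alternative and 39 never changed direction, the exception being RAB6A. RAB genes called higher and lower numbered 16 and 24 under TMM, RLE, limma-voom, unstranded counts and a filter of 1 CPM in 3 libraries, 18 and 22 under library size, 16 and 23 under DESeq2, 16 and 22 with no filter, 15 and 28 under scaling on genes without CCTTTC, and 11 and 19 with a 1.2-fold minimum. That minimum left 5185 of the 9299 calls over all genes and lost RAB10, RAB11B, RAB15, RAB1A, RAB22A, RAB28, RAB2A, RAB6A, RAB7A and RAB8A. Leaving out 1 sample gave 16 higher and 23 to 24 lower RAB genes, 8751 to 9078 calls over all genes and a RAB median of -0.14 to -0.05. RAB genes called lower by at least 2-fold numbered 5 under every alternative, and those called higher by at least 2-fold 0 to 4.

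Scaling moved the small changes. Under library size the calls over all genes were 5799 higher and 3762 lower, the RAB median was 0.02, 4 late endosomal and lysosomal genes were called higher and 0 membrane delivery genes lower, and log2 fold changes turned positive in RAB11A (0.08), RAB27B (0.06), RAB32 (0.06), RAB34 (0.09), RAB3B (0.02), RAB40C (0.08), RAB6A (0.02) and RAB6C (0.05). On genes without CCTTTC, calls over all genes were 3612 higher and 5647 lower with a median of -0.09, the RAB median was -0.16, and RAB43 turned to -0.03. RAB11A (-0.10), RAB27B (-0.12), RAB32 (-0.12) and RAB34 (-0.09) then gained a lower call, with adjusted p of 0.0124, 0.00917, 0.028 and 0.029. RAB34 turned to 0.01 with no filter, and RAB6C to 0.00 with unstranded counts. Without single samples RAB32 ranged from -0.07 to 0.00, RAB34 from -0.03 to 0.03, RAB40C from -0.06 to 0.02, RAB43 from -0.13 to 0.24 and RAB6C from -0.23 to 0.16, none of them called. The cause was not tested. The family sum was -0.31 (log2) per kilobase instead of -0.29. The call of RAB28 was also lost under DESeq2 (adjusted p = 0.162) and with no filter (0.107), and that of RAB6A with no filter (0.0756).

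Replicate numbers are shared between the groups, but same-numbered samples did not deviate together (correlations 0.0116, 0.0252 and 0.0122), so they share only a number. With a replicate block 16 RAB genes were called higher and 24 lower, and over all genes 4628 and 4669. Depth limits RAB genes of few reads, such as RAB6D, RAB9B and RAB43, whose standard errors are wide, and the 11 that were not tested.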
